A study of Sus scrofa with 15 samples.

Results

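Ion channels set the excitability of a muscle fibre. Sodium channels carry the action potential, chloride and potassium channels return the membrane to rest, and the voltage-gated calcium channel of the T-tubule couples excitation to contraction. Potassium channels form the most diverse family: pore subunits open with voltage, calcium, G proteins or nucleotides, and auxiliary subunits change their gating or their transport to the membrane. TRP channels are non-selective cation channels, several of which respond to stretch, osmotic change or chemical irritants.

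The genes described here were taken by their symbols in the array annotation: potassium (KCN), voltage-gated sodium (SCN), calcium (CACN), chloride (CLCN) and TRP channel genes and the sulfonylurea receptors ABCC8 and ABCC9, without CACNA1S and CACNG1. Of 53 probes for 38 such genes among 43603 non-control probes, 36 probes for 26 genes were kept because 7 or more of the 15 arrays flagged them as well above background. The label of muscle ion channels covers a set of mostly potassium channel genes: 19 concern potassium, 2 calcium, 1 chloride and 4 TRP channels. TRPC4AP matches the symbol pattern but is an adaptor protein named for its binding to TRP channels and forms no pore. No sodium channel gene passed; SCN8A was the only one with a symbol on the array and was well above background on 0 of 15 arrays.

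The samples were Longissimus muscle from pigs weighing 20 kg, from a line with low residual feed intake (low_RFI, RFIneg, n = 7) and a line with high residual feed intake (high_RFI, RFIpl, n = 8). Residual feed intake is the feed eaten beyond that predicted for maintenance and growth. Pigs of both lines ate ad libitum, and no age, sex or litter was used here. RNA of each pig was hybridised to its own 1-colour array. Nothing in the labels says how the pigs of a line were related, so the p-values measure the spread between these pigs.

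Each array had 26908 to 34644 probes flagged as well above background. There were 4 slides, and pigs of both lines shared each slide. The array names carry numbers from 1 to 8 (n = 8) and from 55 to 62 (n = 7), called runs below; both runs hold both lines, and what the numbers stand for is not in the labels. Markers of skeletal muscle fibres were all measured (8 of 8), and their mean level ranged from 9.06 to 9.63 over the 15 pigs. A level is log2 of the processed signal relative to the 75th percentile of that array, and it is compared only between pigs for 1 probe, since probes differ in their response. In such bulk tissue fewer cells of a type and less RNA per cell cannot be told apart.

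The 60-base probes decide what these values mean, so those on which the results turn are shown first, 5′ to 3′, as the array files give them. The files list all 36 probes as unmapped and name no genome build, so positions are not given. The first 2 sequences are a pair of KCNE3 probes that share 58 of 60 bases, with the differing bases in capitals. Counted from 1 at the 5′ end, the differences from the first probe to the second are T45C and A59G, and the last triplet changes from TAA to TGA, both stop codons.
KCNE3, A_72_P077426: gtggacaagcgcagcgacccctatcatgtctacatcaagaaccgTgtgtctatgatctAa
KCNE3, A_72_P444834: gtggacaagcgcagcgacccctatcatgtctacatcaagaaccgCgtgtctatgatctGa
The next are a KCNE1 probe, whose capitals mark a last triplet that spells a stop codon, and the first 30 bases of another probe annotated to KCNE1; the pair behaved differently.
KCNE1, A_72_P035586: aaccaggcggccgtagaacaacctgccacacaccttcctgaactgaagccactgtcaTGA
KCNE1, A_72_P642038: ttgcacttttctcttagaaagttcagtctc
The last are the first 30 bases of the CACNB4 probe, which differed between runs, and the probes of KCNN4 and TRPV4, which were highest in the pigs of 1 slide.
CACNB4, A_72_P232742: atttgccatagcactgctaggatccaacca
KCNN4, A_72_P459062: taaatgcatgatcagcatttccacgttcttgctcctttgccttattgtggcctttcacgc
TRPV4, A_72_P440051: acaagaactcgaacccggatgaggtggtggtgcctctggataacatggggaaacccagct

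The first comparison asked which of these genes differ in muscle between the lines. None of the 26 genes did at a limma adjusted p under 0.05 (0 of 26, smallest adjusted p = 0.691); over all 4076 genes tested, 1 passed (0.0245%). At an unadjusted p under 0.05, 1 of 26 genes (3.85%) passed against 286 of 4076 (7.02%). Over probes, 0 of 36 passed, as did 0 of 31984 overall (0%), and 2 of 36 (5.56%) had an unadjusted p under 0.05 against 6.64% of all probes. The median log2 difference, low_RFI minus high_RFI, was 0.022 over potassium genes (11 positive, 8 negative), 0.23 over the calcium pair, -0.12 for the chloride gene and 0.092 over TRP genes, against 0.014 over all genes. The potassium and TRP medians turned negative under another background correction (-0.085 and -0.080), as did the median over all genes (-0.021). The potassium median was also negative, -0.0215, without high_RFI pig 6. Over the potassium genes by role, voltage-gated pore genes had a median of -0.011, the modifiers KCNG1 and KCNS3 -0.13, the beta subunits and KCNIP1 0.076, KCNE subunits -0.035, calcium-activated channel genes 0.017 and the inward rectifier group 0.092.

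**Figure D1:**
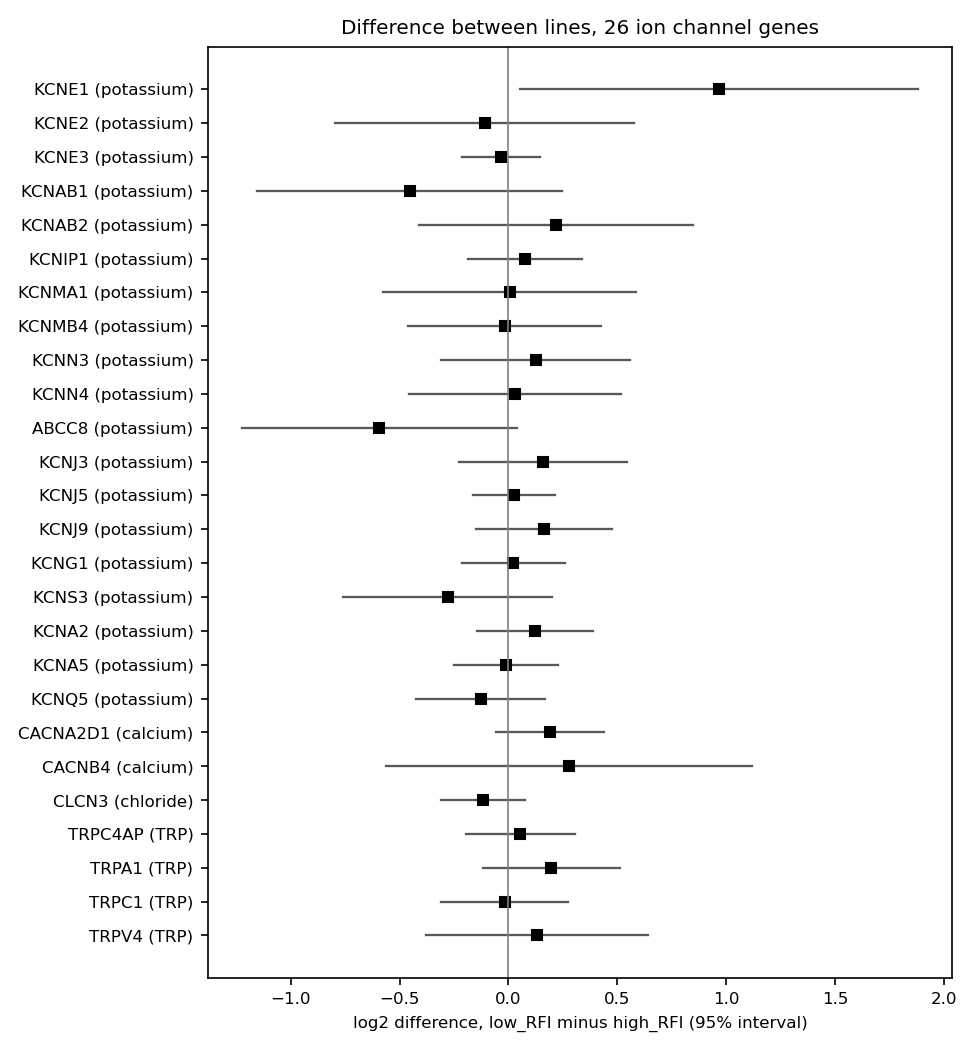
Log2 difference between lines, low_RFI minus high_RFI, for each of 26 ion channel genes (square) with its 95% interval from limma (bar), by ion. The interval of KCNE1, from 0.052 to 1.88, lies above 0 and the others reach or cross 0; none passed adjustment over 4076 genes.

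KCNE1 encodes a single-span subunit best known for slowing the KCNQ1 channel of the heart, and it had the smallest p between lines. Its level ran from -2.17 through a median of -1.46 to -0.11 in low_RFI and from -4.11 through -1.81 to -1.33 in high_RFI. The lines overlapped, with the low_RFI pig higher in 41 of 56 pairs. The difference was 0.97 ± 0.43 (SE) on the log2 scale, a 1.95-fold difference in means that did not pass (limma adjusted p = 0.691). The lowest levels, -3.56 and -4.11, belonged to high_RFI pigs 2 and 5, which share slide 2; without the 3 pigs of that slide the difference was 0.46 (limma adjusted p = 0.842). With normexp correction it was 0.53, and over the mean of the gene's probes 0.44. Within slides 1 to 4 it was 1.01, 2.38, 0.60 and -0.21, and within the runs 0.78 and 1.15. KCNQ1, the pore gene KCNE1 is known to join, passed background on 4 of 15 arrays and was not among the 26 genes.

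The remaining inward rectifier, calcium and chloride genes of low p had smaller differences. ABCC8, the sulfonylurea receptor that regulates ATP-sensitive potassium channels, ran from -2.85 through -2.39 to -2.13 in low_RFI and from -2.93 through -1.73 to -0.62 in high_RFI. Its difference was -0.59 ± 0.30 (SE), with the low_RFI pig higher in 17 of 56 pairs (limma adjusted p = 0.748). The high_RFI pigs spread more widely (SD 0.80 against 0.29), and 5 of them lay above every low_RFI pig. CACNA2D1, the extracellular alpha-2-delta subunit of the muscle calcium channel, was at 5.46 ± 0.26 (SD, n = 7) in low_RFI pigs and 5.27 ± 0.19 (SD, n = 8) in high_RFI pigs, a difference of 0.19 ± 0.12 (SE). Its other probe gave 0.24 ± 0.11 (SE), neither past adjustment (0.817 for the gene and 0.751 for that probe, limma). CLCN3, a chloride-proton exchanger of endosomes, differed by -0.12 ± 0.092 (SE) on 1 probe and by 0.090 on the other.

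KCNAB1 and KCNAB2, cytoplasmic beta subunits of voltage-gated potassium channels, gave -0.45 ± 0.33 and 0.22 ± 0.30 (SE), neither past adjustment (limma adjusted p = 0.880 and 0.966). Without low_RFI pig 6 the KCNAB2 difference was 0.040, and without high_RFI pig 5 it was 0.43. KCNS3, an electrically silent subunit that modifies other voltage-gated potassium channels, gave -0.28 ± 0.23 (SE), while KCNA2, a voltage-gated pore gene, gave 0.12 ± 0.13 (SE). The G-protein-gated rectifier genes KCNJ3, KCNJ5 and KCNJ9 differed by 0.16, 0.025 and 0.16, each with a 95% interval that crosses 0. TRPA1, a sensor of irritants, gave 0.20 ± 0.15 (SE), TRPV4, an osmotically and mechanically responsive channel, 0.13 ± 0.24 (SE), and TRPC1, a pore subunit linked to stretch and store-operated entry, -0.018 ± 0.14 (SE). The calcium-activated genes gave small differences: 0.0053 ± 0.27 (SE) for the pore KCNMA1, -0.018 ± 0.21 (SE) for its partner KCNMB4, 0.13 ± 0.20 (SE) for KCNN3 and 0.029 ± 0.23 (SE) for KCNN4. Their 95% intervals reached 0.59 for KCNMA1 and 0.52 for KCNN4, so differences of that size lie within the error of these pigs.

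KCNE1 and CACNB4 varied among pigs of a line more than most genes. The within-line SD of a gene's level had a median of 0.33 over the 26 genes and 0.26 over all 4076. This SD pools runs and slides, so differences between them enter it along with differences between pigs. KCNE1 (SD 0.91) stood at percentile 96.8 of all genes, CACNB4 (0.83) at 95.6, KCNAB1 (0.69) at 92.8 and KCNE2 (0.68) at 92.5. KCNE3 (0.14, percentile 10.5), KCNJ5 (0.15, 13.6) and CLCN3 (0.16, 16.8) varied least. KCNE2 was also the gene nearest the filter, well above background on 7 of 15 arrays, followed by KCNMA1 on 8 and TRPA1 on 9. Just below it were the other KCNS3 probe on 6 arrays, KCNB2 on 5 and KCNQ1 on 4; among the 12 genes with no probe kept, KCNA10, KCNJ15, TRPC4, TRPC5, TRPM1, TRPM2 and SCN8A were at 0 arrays and KCNJ13 and TRPC6 at 1.

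**Figure D2:**
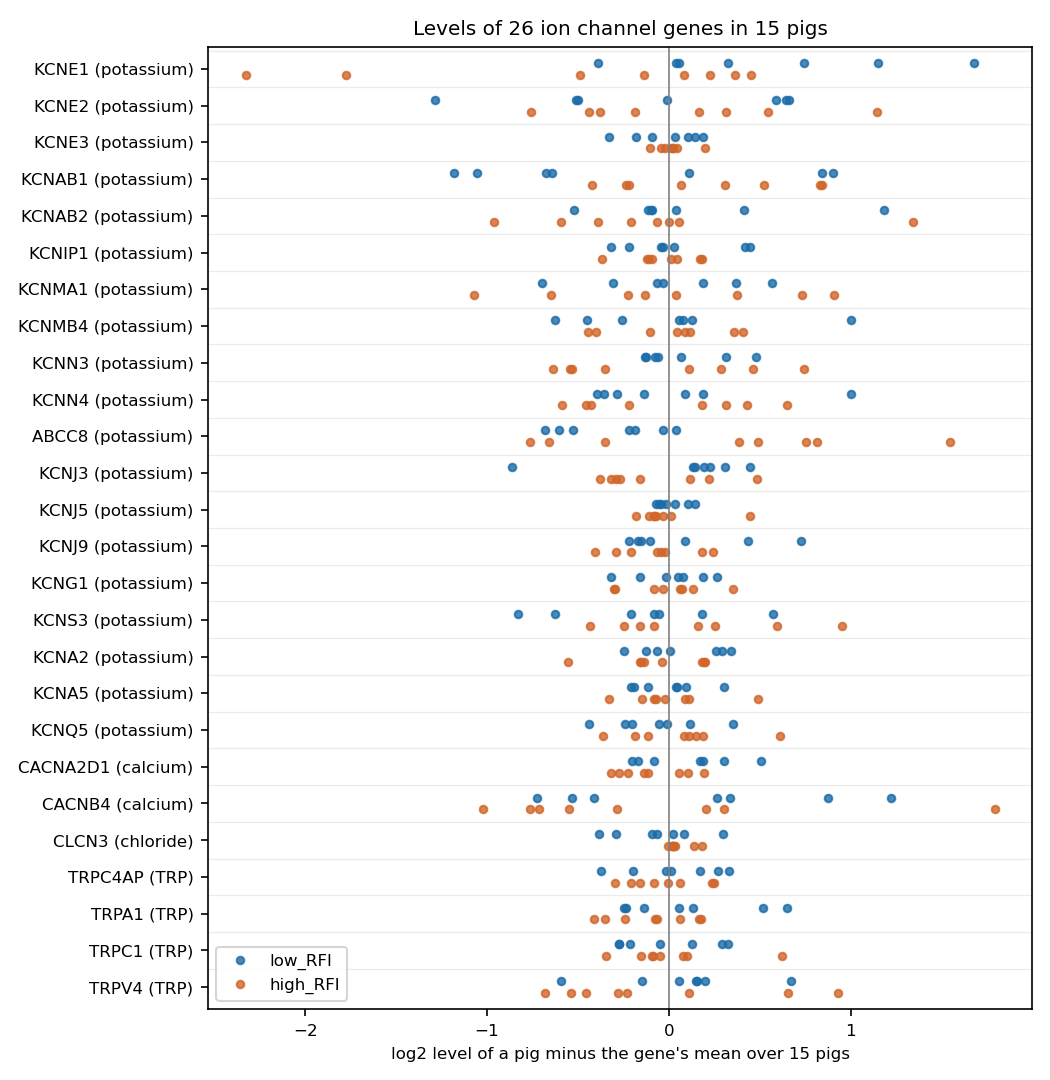
Log2 level of each of 26 ion channel genes in each pig minus that gene's mean over 15 pigs, by line (low_RFI n = 7, high_RFI n = 8). Points of both lines overlap for all 26 genes; KCNE1, CACNB4 and KCNAB1 spread widely (within-line SD 0.91, 0.83 and 0.69) and KCNE3 and KCNJ5 little (0.14 and 0.15).

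Where a gene had several probes, their agreement over the 15 pigs was measured in 11 pairs from 9 genes. The CACNA2D1 probes followed each other (Pearson r = 0.94, Spearman rho = 0.95, permutation p = 1.0e-05 for each, the smallest the permutations allow, adjusted p = 0.00011 over 11 pairs), with r = 0.89 without the 2 farthest pigs and 0.95 and 0.85 within the runs. So did those of KCNQ5, a pore subunit of slowly opening, non-inactivating potassium channels (r = 0.85, rho = 0.79, permutation p = 6.0e-05 and 0.00086, adjusted 0.00033 and 0.00473), with r = 0.72 without the 2 farthest pigs and 0.92 and 0.58 within the runs. The other 9 pairs did not pass by either coefficient. Low_RFI minus high_RFI had the same sign for the probes of 5 of the 9 genes.

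KCNE1 was among the pairs that did not follow each other. Its probes gave r = -0.22 (rho = 0.014, permutation p = 0.433 and 0.965, adjusted 0.595 and 0.965), and the second probe differed between lines by -0.090 ± 0.20 (SE). High_RFI pigs 2 and 5, lowest on the first probe, were at -2.18 and -2.53 on the second, among its higher values. The overlapping KCNE3 pair gave r = 0.50 (rho = 0.40, permutation p = 0.0565 and 0.137, adjusted 0.207 and 0.504), and r fell to 0.15 without the 2 farthest pigs. These 2 KCNE3 probes were well above background on 9 and 13 arrays, the third KCNE3 probe on 15; no other pair of a gene's probes shared a run of more than 8 bases.

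**Figure D3:**
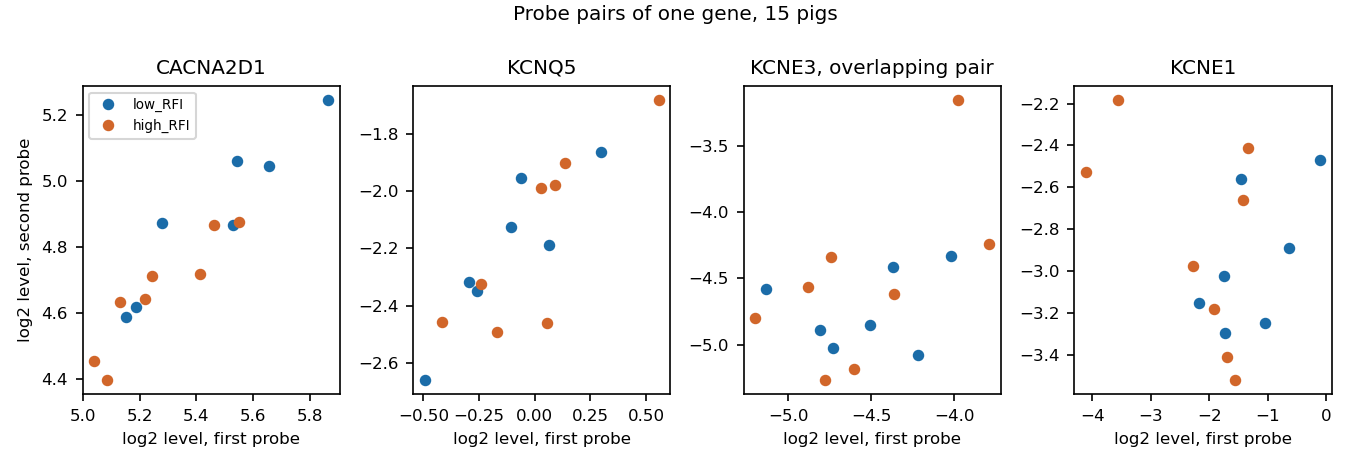
Log2 level of 2 probes of the same gene in each of 15 pigs, the first probe on the x axis and the second on the y axis, by line. Points rise together for CACNA2D1 (r = 0.94) and KCNQ5 (r = 0.85), less for the overlapping KCNE3 pair (r = 0.50) and not for KCNE1 (r = -0.22).

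Runs were compared next, run 55 to 62 minus run 1 to 8 with line as a covariate. CACNB4, a cytoplasmic calcium channel beta subunit best known from brain, was higher in run 55 to 62 in both lines and was the only one of the 26 genes to pass (1 of 26). Over all genes 160 of 4076 passed (3.93%; 2.43% as higher in run 55 to 62), and over probes 1 of 36 and 728 of 31984 (2.28%). The share with an unadjusted p under 0.05 was 26.9% (7 of 26) against 22.7% over all genes. A single call among 26 genes is close to that background.

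CACNB4 ran from -4.16 through -3.77 to -2.80 in run 1 to 8 and from -3.43 through -2.84 to -1.35 in run 55 to 62. The runs overlapped, low_RFI pig 3 being the highest of its run. The difference was 1.20 ± 0.26 (SE), 2.30-fold (limma adjusted p = 0.0245), 1.12 within low_RFI and 1.27 within high_RFI. Without high_RFI pig 5, the highest, it was 0.98 (limma adjusted p = 0.0143). With normexp background correction it was 0.40 and the call ended (limma adjusted p = 0.307).

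Other genes of the set differed between runs without passing. KCNN3, a small-conductance calcium-activated channel known to rise in denervated muscle, gave 0.55 ± 0.15 (SE, limma adjusted p = 0.0569). In run 1 to 8 the high_RFI pigs were at -1.88, -2.16, -2.06 and -2.07 and the low_RFI pigs at -1.61, -1.65, -1.21 and -1.59. In run 55 to 62 the high_RFI pigs were at -1.24, -0.78, -1.07 and -1.42 and the low_RFI pigs at -1.66, -1.46 and -1.05. The line difference of KCNN3 was thus 0.53 in one run and -0.26 in the other. The line difference of ABCC8 was 0.020 in run 1 to 8 and -1.21 in run 55 to 62. In run 55 to 62 the high_RFI pigs were at -1.78, -0.62, -1.36 and -1.42 for ABCC8 and the low_RFI pigs at -2.39, -2.78 and -2.36. How many of all genes separate the lines within a run was not counted. The line difference of KCNS3 was -0.76 in run 1 to 8 and 0.29 in run 55 to 62. Tested as an interaction over all genes, none of the 3 passed: -0.79 ± 0.24 (SE) for KCNN3, -1.23 ± 0.43 (SE) for ABCC8 and 1.05 ± 0.39 (SE) for KCNS3. Each had a limma adjusted p of 0.853 (unadjusted 0.00506, 0.0120 and 0.0180), with 0 of 4076 genes called (0%).

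KCNAB2 gave 0.67 ± 0.25 (SE, limma adjusted p = 0.129), and 0.75 and 0.61 within low_RFI and high_RFI. Its highest pigs were high_RFI 5 at 0.78 and low_RFI 6 at 0.62. KCNG1, another silent modifier subunit, gave -0.28 ± 0.088 (SE, limma adjusted p = 0.0839), and CACNA2D1 gave -0.27 ± 0.097 (SE, limma adjusted p = 0.113). KCNG1 passed with slide as a block, CACNA2D1 without low_RFI pig 1, and KCNN3 without low_RFI pig 3 or without low_RFI pig 5, when 2 genes were called in place of 1.

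**Figure D4:**
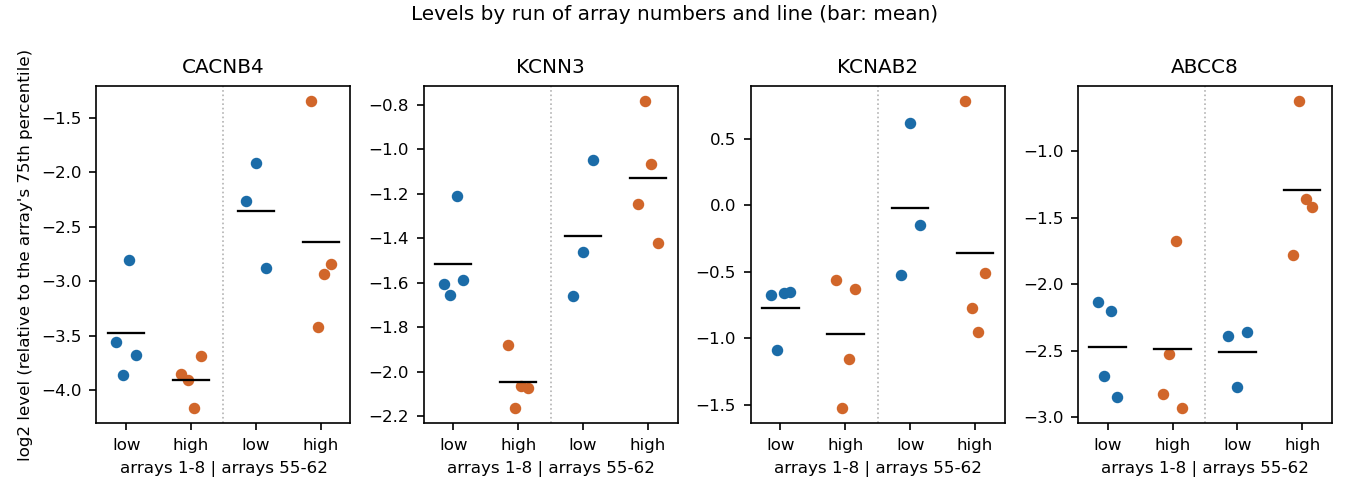
Log2 level of CACNB4, KCNN3, KCNAB2 and ABCC8 in each pig by run of array numbers (1 to 8, then 55 to 62) and line (blue low_RFI, orange high_RFI), with bars at means. CACNB4 means rise from -3.69 to -2.52 between runs over both lines. The line difference of ABCC8 was 0.020 in run 1 to 8 and -1.21 in run 55 to 62.

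Markers of fibre type and of other cells were set beside the runs. Of the slow fibre list, 8 of 10 genes were measured and 7 of 8 were higher in run 55 to 62 (median 0.45, 0 passed), while 0 of 8 fast fibre genes were higher (median -0.11, 1 passed as lower). Over all genes 1724 of 4076 were higher and 2352 lower (median -0.040), and 3.93% passed in either direction. The mean of the measured leukocyte genes, CD3E and CD163 of 5 listed, ranged from -1.76 to -1.08 in run 1 to 8 and from -1.51 to 0.22 in run 55 to 62. The mean of all 6 endothelial genes ranged from 1.09 to 1.57 in run 1 to 8 and from 1.05 to 1.35 in run 55 to 62. Their part in the run differences was not tested.

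Genes that work beside these channels were taken from lists chosen for this report. Between lines 0 passed limma's test, adjusted or at an unadjusted p under 0.05, of 6 measured pump and exchanger genes (13 listed), 3 of excitation-contraction coupling (10 listed), 1 of the endplate (9 listed) and 5 anchors and regulators (12 listed). Between runs, CHRNA1, the endplate acetylcholine receptor alpha subunit, was higher in run 55 to 62 by 1.34 ± 0.24 (SE, limma adjusted p = 0.0101). CACNG1, the gamma subunit of the muscle calcium channel, was lower by 0.39 ± 0.096 (SE, limma adjusted p = 0.0383).

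Slides were then compared, a comparison chosen after the values were seen, with line and run as covariates. TRPV4 differed among the 4 slides (limma F test, adjusted p = 0.00386), and KCNE1 did so at the edge of the threshold (adjusted p = 0.0490), 2 of 26 genes against 187 of 4075 tested (4.59%). TRPV4 averaged -1.77 on slide 1, -0.52 on slide 2, -1.38 on slide 3 and -1.24 on slide 4. The slide 2 pigs, low_RFI 1 and high_RFI 2 and 5, were at -0.61, -0.35 and -0.62, above the other 12, which ran up to -1.08. The TRPV4 call held in each of 15 fits without 1 pig and the KCNE1 call in 2 of 15. With normexp correction 0 of 26 passed (TRPV4 adjusted p = 0.164).

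Slide 2 stood apart for further members. KCNN4, an intermediate-conductance calcium-activated channel known from blood cells and epithelia, was at -1.37, -1.94 and -1.72 in its pigs, above the other 12, whose highest was -2.06. KCNA5, a voltage-gated pore gene, was at 1.39, 1.57 and 1.20 there and at most 1.18 elsewhere. Set against the other slides, slide 2 was higher by 0.95 ± 0.18 (SE) for TRPV4 (limma adjusted p = 0.0116), 0.83 ± 0.16 (SE) for KCNN4 (0.0118) and 0.35 ± 0.090 (SE) for KCNA5 (0.0452). KCNE1 gave -1.51 ± 0.41 (SE, limma adjusted p = 0.0564). Thus 3 of 26 genes passed against 175 of 4076 (4.29%; 3.53% as higher on slide 2), and slide 2 was singled out from the data. Leaving out 1 pig at a time, TRPV4 and KCNN4 passed in 13 of 15 fits and KCNA5 in 2; without high_RFI pig 5 none of them passed, TRPV4 also missed without high_RFI pig 2 and KCNN4 without low_RFI pig 1. KCNE1 passed this contrast in 4 of those 15 fits, its difference running from -2.13 to -1.15. With normexp correction 0 of 26 genes passed it, KCNN4 giving 0.33 and KCNE1 -0.91, and KCNA5 did not pass on the deposited values.

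The slide difference also varied with the base composition of probes. Over all tested probes, the median of slide 2 minus the others was -0.065 for probes with up to 35% G and C (n = 7491), 0.0054 from there to 45% (n = 20778), 0.088 to 55% (n = 3133) and 0.10 above 55% (n = 582). The TRPV4, KCNN4 and KCNA5 probes have 55%, 45% and 66.7%, the KCNE1 probe 55%. The other KCNA5 probe, with 36.7%, gave -0.11 ± 0.16 (SE), and the other KCNE1 probe, with 45%, gave 0.59 ± 0.23 (SE) against -1.51. The part of base composition in these slide differences was not tested.

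**Figure D5:**
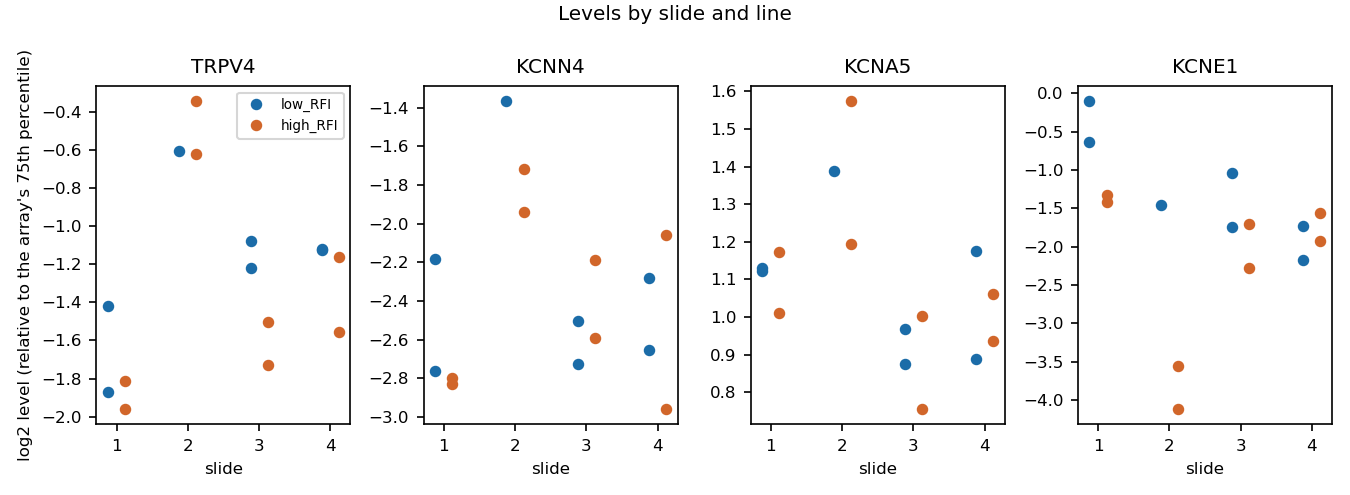
Log2 level of TRPV4, KCNN4, KCNA5 and KCNE1 in each pig by slide (1 to 4) and line. The 3 pigs of slide 2 are the highest for TRPV4, KCNN4 and KCNA5, and 2 of them, at -3.56 and -4.11, are the lowest for KCNE1.

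The last comparison asked whether channel levels followed fibre type across the 15 pigs. A fibre index was the mean of 8 slow fibre genes minus the mean of 8 fast fibre genes. It was -1.95 ± 0.70 (SD, n = 7) in low_RFI pigs and -1.66 ± 0.54 (SD, n = 8) in high_RFI. Between lines, 8 of 8 slow genes were higher in high_RFI (median low_RFI minus high_RFI -0.16). Of the fast genes, 7 of 8 were higher in low_RFI (median 0.035). None of either list had a limma p under 0.05, adjusted or not. Over all genes 2223 of 4076 were higher in low_RFI. By Pearson r, none of the 26 genes followed the fibre index after adjustment over 4002 genes (0 of 26, permutation test, against 7 of 4002, 0.175%). By the same test 1 of 26 had an unadjusted p under 0.05 against 8.02% of all. That gene was CACNA2D1 (Pearson r = -0.56, permutation p = 0.029, adjusted p = 0.61; Spearman rho = -0.50, permutation p = 0.0606, adjusted 0.577). Its r was -0.68 without the 2 pigs farthest from the median index, but -0.37 and -0.35 within the runs (exact permutation p = 0.369 and 0.426). TRPV4 gave r = -0.49 (permutation p = 0.0656, adjusted 0.613) and rho = -0.62 (permutation p = 0.0168, adjusted 0.55), with r = -0.13 and -0.74 within the runs. KCNAB2 gave r = 0.41 (permutation p = 0.13, adjusted 0.669) and rho = 0.31, and r fell to 0.038 without the 2 farthest pigs. KCNN4 gave r = -0.38 (adjusted permutation p = 0.683) and rho = -0.54 (permutation p = 0.0418, adjusted 0.563). KCNAB1 and KCNMB4 gave r = 0.37 and -0.37, with adjusted permutation p-values of 0.683 and 0.690.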

How the data were processed

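Per the labels, 150 ng of total RNA per sample was Cy3-labelled and hybridised. Per the file headers, Feature Extraction 10.7.3.1 (protocol GE1_107_Sep09) gave intensity values, background-subtracted and detrended within each array. The authors' deposited table holds log2 values that equal the log2 processed signal minus a per-array median over 29364 spots (largest difference 4.93e-08); R 2.10.0 is named in the submitters' processing notes. That table served as an alternative.

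Control and non-uniform spots were left out, and spots of a probe were averaged. Tested probes were well above background on at least 7 of 15 arrays with at least 4 values per line (31984 of 43603). Genes were named by the 1 reference gene of a probe's annotated transcripts, or else by the symbol or synonym in the array annotation. Genes of the channel families kept their symbols in the annotation. Each gene was represented by the tested probe of highest mean level (4076 genes). Differences were fitted with limma 3.58.1 in R 4.3.3 (statmod 1.5.0 and version 1.17.8 of data.table), two-sided, Benjamini-Hochberg over all genes or probes, called at an adjusted p under 0.05. The planned adjustment of the fibre correlations over ion channel genes was replaced by one over all genes. Correlations used 100000 resamples. The fits were tested on simulated data. The number of arrays limits the precision: the median standard error was 0.165 over the 26 genes.

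Fully described genes were those of 20 named muscle channel genes that were measured, the 10 of smallest p between lines, those that passed between runs and the 6 of largest fibre correlation. Some measured genes are not reported here. Members and lists were chosen with earlier results of these data known. Alternatives covered background correction, normalization, the deposited values, the probe rule, filters, the model, slide, run and replicate blocks, and each pig left out. Pigs left out of the run and slide fits, slide comparisons, the line-by-run interaction and fits without slide 2 were chosen after the data were seen.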

Additional observations from a re-analysis of the deposited data

Results flagged for a closer look

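In 6 of 52 groups (26 genes in 2 lines) the highest or lowest pig lay far from the nearest other by Dixon's 95% criterion. Chance alone meets it in about 5% of groups if the values of a group are normally spread. These groups hold pigs of both runs and of all slides, and the share over all genes was not counted. So 6 of 52 is not read as an excess in ion channel genes. CACNB4 was at -1.35 in high_RFI pig 5, where the next pig was at -2.84. KCNAB2 was at 0.78 in the same pig, the next being at -0.51. KCNJ5, a G-protein-gated rectifier, was at -1.24 in high_RFI pig 2 (next -1.67), and KCNN4 at -1.37 in low_RFI pig 1 (next -2.18); with high_RFI pig 5 these are the pigs of slide 2. TRPC1 was at -2.96 in high_RFI pig 6 (next -3.48). KCNJ3 was the one low value, -4.73 in low_RFI pig 2 (next -3.73).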

How the results depend on the processing

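No alternative, of 27 tried, gave a line call among the ion channel genes, and their smallest adjusted p ran from 0.541 to 0.841 (limma). With normexp the median line difference was -0.0852 for potassium and -0.0797 for TRP genes, 0 genes passed between runs and 0 among slides, and line differences turned to -0.00916 for CACNB4, -0.0222 for KCNA2, -0.103 for KCNJ9, -0.198 for KCNMA1, -0.0053 for KCNN3, -0.0852 for KCNN4, -0.166 for TRPA1 and -0.0258 for TRPV4. Over all genes the median line difference with normexp was -0.0211, against 0.0142 in the main fit. Without the 3 pigs of slide 2, KCNA2 turned to -0.00841 and KCNMB4 to 0.018, and with run as a block KCNN4 to -0.00139. Between runs 2 genes passed with slide as a block, and 1 to 2 when 1 pig was left out; among slides 1 passed on the deposited values, and 1 to 2 when 1 pig was left out. Leaving out 1 pig moved the line difference of KCNMA1 between -0.148 and 0.135, of KCNMB4 between -0.187 and 0.0843, of KCNN4 between -0.135 and 0.125, of TRPC1 between -0.0737 and 0.0692, of KCNAB1 between -0.646 and -0.298, of KCNAB2 between 0.0402 and 0.425, of TRPV4 between 0.0309 and 0.272 and of KCNN3 between 0.043 and 0.24. For KCNE1, normexp gave 0.53 and averaging its probes 0.438 in place of 0.966. The causes were not tested. Dim probes such as KCNE2, KCNMA1 and TRPA1 lie near background, which limits what they can show.

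Same-numbered pigs of the 2 lines deviated together in 5 of 7 pairs (r over 0.1, lowest -0.034, highest 0.32). Of 14 pigs, 4 correlated best with the pig of their own number, so the numbers were not taken to pair the pigs. Pigs of the same number were always in the same run, so the replicate block also takes up differences between runs. With the replicate block 0 genes passed between lines, KCNMB4 turned to 0.0393 and KCNN4 to -0.0524, and it changed no other sign among the genes described in full.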

Other observations

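Further channel genes are on the array under accessions or older symbols and so lay outside the rule. Each was well above background on 15 of 15 arrays. KCNJ2, the inward rectifier that helps hold the resting potential of muscle, gave a log2 difference, low_RFI minus high_RFI, of -0.28 ± 0.17 (SE, limma adjusted p = 0.837 over probes), with the low_RFI pig higher in 15 of 56 pairs. Within slides 1 to 4 KCNJ2 gave 0.33, -0.46, -0.82 and -0.23. The 4 probes of TRPM7, a magnesium-permeable channel with a kinase domain, gave -0.15, -0.15, -0.043 and -0.18, none past adjustment (limma adjusted p from 0.839 to 0.984). CLCN4 gave 0.072 ± 0.14 (SE, limma adjusted p = 0.984).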
